A study of Arabidopsis thaliana with 18 samples.

Results

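Of the 33602 loci in the count table of Arabidopsis thaliana, 5 were followed through every library of a study of developing seeds. They were chosen from the measured difference between AtBD and AtWT, where each was counted mainly in 1 genotype and was low or near 0 in the other. That contrast is therefore given as a description, without a test. With edgeR 0.0568% of all genes passed in it, and the groups did not overlap for all 5 members and for 19.7% of all genes, from which nothing is read here. CAD1 (AT1G72680) and AT2G06950 were the loci counted mainly in AtBD, and AT5G35935, AT2G25510 and ECS1 (AT1G31580) were those counted mainly in AtWT. All 5 were found by locus identifier in the second set of libraries, and 4 of the 5 in the first set.

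Seeds were collected 9 to 10 days after flowering, and polyA RNA was sequenced. AtBD, AtBDtr and badc-tdna13 carried a double knockout of badc1 and badc3 made by crossing T-DNA insertion lines, and AtWT, AtWTtr and COL0 were labelled wild type. Each group held 3 libraries. BADC proteins resemble the biotin carrier of the plastid acetyl-CoA carboxylase, lack biotin and restrain the enzyme. The series also isolated RNA bound to ribosomes through a tagged RPL18 transgene driven by a soybean glycinin promoter, a promoter of seed storage tissue. No label spells out "tr", so AtBDtr and AtWTtr are called tr libraries. Nothing in the labels says whether the libraries of a group came from separate plants, so p-values measure only the spread between these libraries.

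CAD1 belongs to the cinnamyl alcohol dehydrogenases, a family that reduces cinnamyl aldehydes to the alcohols from which lignin is built. Its relatives CAD4 and CAD5 are the main lignin enzymes of the stem. ECS1 is annotated as a cell wall protein and AT2G25510 as an uncharacterized protein. AT2G06950 and AT5G35935 are annotated as pseudogenes, each drawn as 1 exon.

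The coordinates that follow are of TAIR10.1, whose 5 nuclear chromosomes are those of TAIR10. CAD1 lies on the minus strand at chr1:27359109-27361024 and ECS1 on the plus strand at chr1:11310997-11311989. AT2G06950 is on the minus strand at chr2:2859226-2863434 and AT2G25510 on the plus strand at chr2:10856271-10857217. AT5G35935 is on the minus strand at chr5:14083388-14089891.

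A pair of members, ECS1 and AT2G25510, are related in sequence to each other and to another gene, AT5G42530, annotated as an uncharacterized protein. The first coding segments of these genes are shown because they were among the loci that went the same way by genotype. They are RefSeq annotation on TAIR10.1, at chr1:11311300-11311405 on the plus strand, chr2:10856473-10856566 on the plus strand and chr5:17005233-17005338 on the minus strand. Capitals mark bases that are not the same as in AT5G42530.
ECS1: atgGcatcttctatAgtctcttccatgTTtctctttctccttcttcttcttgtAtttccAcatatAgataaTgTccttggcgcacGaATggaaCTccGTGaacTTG
AT2G25510: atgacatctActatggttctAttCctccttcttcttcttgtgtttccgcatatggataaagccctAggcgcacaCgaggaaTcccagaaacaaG
AT5G42530: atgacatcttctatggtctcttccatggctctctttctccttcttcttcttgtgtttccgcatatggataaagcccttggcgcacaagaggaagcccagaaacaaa
AT2G25510 shared 87 of 94 aligned bases with AT5G42530, and ECS1 shared 86 of 106.

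Both target genes were checked first. BADC3 (AT3G15690) averaged 0.310 ± 0.337 CPM in AtBD and 72.5 ± 8.33 CPM in AtWT (SD, n = 3 each), where CPM is counts per 1000000 counts of the TMM-adjusted library total, TMM being a scaling that sets most genes level between libraries. BADC1 (AT3G56130) averaged 1.96 ± 0.566 CPM in AtBD and 70.7 ± 8.09 CPM in AtWT. The first set lists AT3G56130 together with AT3G56140, so that locus does not measure BADC1 alone. It had 304 and 348 fragments in badc-tdna13 replicates 0 and 1, against 1008 and 1088 in COL0 replicates 0 and 1. Libraries of the second set held 16977673 to 32547007 counts, and those of the first set 9546528 to 11574156 fragments. In the first set, the libraries numbered 2 of badc-tdna13 and COL0 held the same number of fragments, rounded to whole ones, at 17287 of 17287 loci compared. BADC3 had 794 fragments in each of these 2 libraries, against 63 and 32 in badc-tdna13 replicates 0 and 1. COL0 replicates 0 and 1 had 901 and 1000, so BADC3 in the badc-tdna13 library numbered 2 was nearer to COL0. Both libraries numbered 2 were left out, which leaves 2 libraries per group. No result of the first set below uses them unless they are named, with 1 exception. Library CPM of the members, and whether their groups overlapped, were scaled with all 6 libraries. Summed seed storage and oil body markers took 231514 to 286181 CPM in AtBD and 138659 to 191222 CPM in AtWT, and 495847 to 795614 CPM in AtBDtr and 524575 to 845590 CPM in AtWTtr, so the markers of the labelled tissue were abundant in all 12 libraries.

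CAD1 was the member with the highest level. AtBD replicates 1 to 3 had 855, 828 and 574 counts, or 32.9, 32.8 and 25.0 CPM, against 67, 21 and 52 counts, or 1.39, 0.653 and 1.59 CPM, in AtWT. AtBDtr had 825, 874 and 712 counts, or 64.5, 50.4 and 39.2 CPM, against 40, 75 and 54 counts, or 2.73, 4.81 and 3.78 CPM, in AtWTtr. The lowest mutant library had more CPM than the highest wild-type library, but CAD1 was counted in every wild-type library. Pooled CPM was 24.6 times higher in AtBD than in AtWT (95% exact counting interval 20.7 to 29.3, counting error only).

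AT2G06950 was the member with no count in any wild-type library. AtBD had 595, 485 and 328 counts and AtBDtr 186, 325 and 464 counts, while all 3 AtWT and all 3 AtWTtr libraries had 0. These were 18.8 ± 4.31 CPM in AtBD and 19.6 ± 5.57 CPM in AtBDtr (SD, n = 3 each). Over a floor of 3 counts in the group, the level was at least 715-fold higher in AtBD than in AtWT and at least 299.7-fold higher in AtBDtr than in AtWTtr. The bound depends on depth and was 410.4-fold without AtWT replicate 1 and 194.8-fold without AtWTtr replicate 2.

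AT5G35935 showed the reverse order. AtBD had 4, 0 and 0 counts, against 389, 84 and 178 counts in AtWT. AtBDtr had 2, 2 and 1 counts, against 78, 87 and 100 counts in AtWTtr. Among the wild-type libraries AtWT varied most, with 8.08, 2.61 and 5.43 CPM, and the mutant libraries stayed at or below 0.156 CPM. Pooled CPM was 107 times lower in AtBD than in AtWT (95% exact counting interval 41.5 to 393). All 4 AtBD counts came from replicate 1, and without that library it was at least 92.5-fold lower over the floor, and 70.5 times lower without AtBD replicate 2.

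AT2G25510 and ECS1 were counted mainly in AtWT and only weakly in AtWTtr. AT2G25510 had 8, 2 and 5 counts in AtBD, against 287, 198 and 161 counts in AtWT, and 0, 0 and 3 counts in AtBDtr, against 20, 14 and 17 counts in AtWTtr. ECS1 had 5, 6 and 10 counts in AtBD, against 326, 241 and 198 counts in AtWT, and 0, 0 and 0 counts in AtBDtr, against 9, 1 and 22 counts in AtWTtr. The groups without tr and the tr groups each separated for both genes. Taken over all 12 libraries ECS1 did not separate the genotypes, since AtWTtr replicate 2, at 0.0642 CPM, lay below the 3 AtBD libraries, at 0.192 to 0.436 CPM. The other 4 members did separate, as did 0.139% of the 19376 genes tested. The AtBD and AtWT libraries that chose the members are among the 12, so nothing is read from that share.

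**Figure D1:**
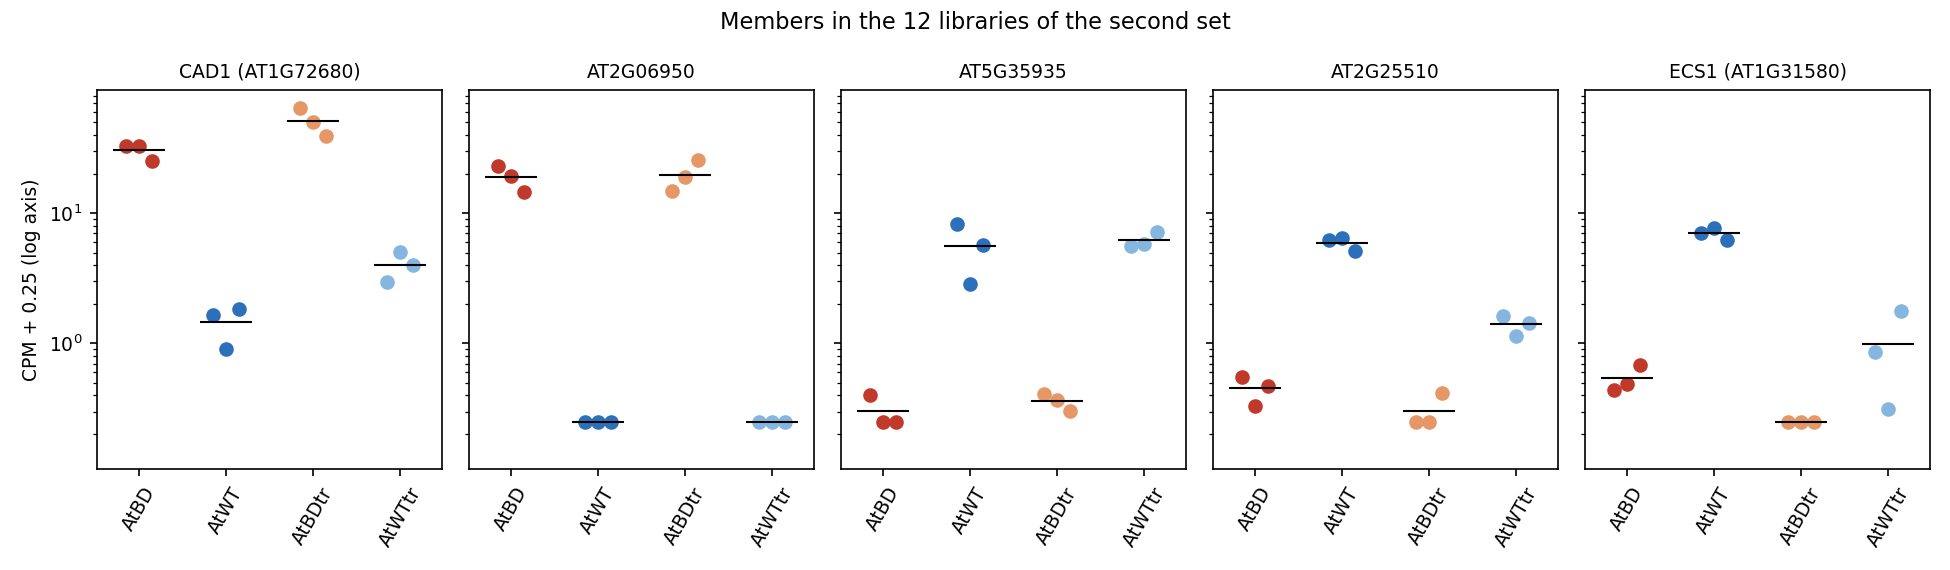
Each panel plots a member's CPM + 0.25 (log axis) in the 3 libraries of AtBD, AtWT, AtBDtr and AtWTtr, with a line at the group mean. CAD1 and AT2G06950 are high in the mutant groups, the other 3 members in AtWT, and ECS1 in AtWTtr overlaps AtBD.

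ECS1 and AT2G25510 were also lower in AtWTtr than in AtWT, with no overlap, a difference that was not tested. ECS1 averaged 0.739 ± 0.745 CPM in AtWTtr and 6.77 ± 0.729 CPM in AtWT (SD, n = 3 each), and AT2G25510 had 0.899 to 1.37 CPM in AtWTtr and averaged 5.68 ± 0.670 CPM in AtWT. AT5G35935 averaged 5.97 ± 0.895 CPM in AtWTtr and 5.37 ± 2.73 CPM in AtWT. All these levels rest on the TMM scaling between AtWT and AtWTtr, and no other scaling was tried for them. Marker sums of other tissues also differed between these groups. The sum of seed coat markers was 38.1 to 58.9 CPM in AtWTtr and 615 to 917 CPM in AtWT, and it was 33.2 to 62.0 CPM in AtBDtr and 297 to 526 CPM in AtBD, with 1 of 5 markers at 0 in AtBD, AtBDtr and AtWTtr. Silique wall markers summed to 4.92 to 5.71 CPM in AtWTtr and 44.8 to 60.8 CPM in AtWT, and to 6.06 to 7.5 CPM in AtBDtr and 35.3 to 47.5 CPM in AtBD, with 0 of 4 markers at 0. Endosperm markers went the other way, with 5925 to 16288 CPM in AtWTtr and 2316 to 3305 CPM in AtWT, and 8579 to 13486 CPM in AtBDtr and 2596 to 4058 CPM in AtBD, with 0 of 3 markers at 0. The part of these tissues in the values of ECS1 and AT2G25510 was not tested. In such bulk samples, fewer cells of a type and less RNA per cell cannot be told apart.

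AT5G42530, the gene related to ECS1 and AT2G25510, had 7, 0 and 0 counts in AtBD, against 204, 176 and 73 counts in AtWT. It had 0, 0 and 0 counts in AtBDtr, against 0, 1 and 20 counts in AtWTtr. For all 3 related genes every AtWTtr library had fewer counts than every AtWT library. BLAST of ECS1 gave its best match by score, 90.1% identical over 323 aligned bases, at the lncRNA loci AT1G06443 and AT1G06447 on chromosome 1. AT2G25510 matched AT5G42530 at 81.1% over 472 aligned bases. The second set lists reads that map to several places apart from its gene counts. Reads that such copies share may thus be missing from the counts, which makes the levels of this group uncertain. How the first set treated such reads is not given in the sources used here.

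**Figure D2:**
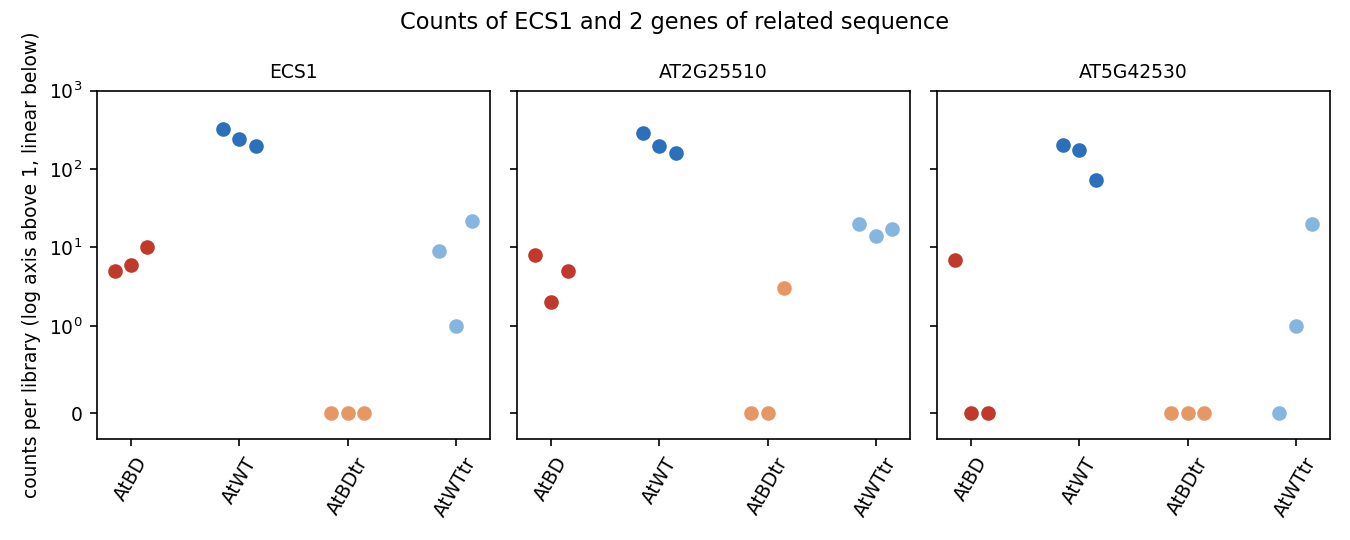
Counts per library of ECS1, AT2G25510 and AT5G42530 in AtBD, AtWT, AtBDtr and AtWTtr (log axis above 1, linear below). The AtWT libraries hold 73 to 326 counts, and AtBD libraries 0 to 10.

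The pseudogenes also have relatives. The best match of AT2G06950 was AT4G27210, 83.2% identical over 2319 aligned bases, and 77 matches of at least 100 bases were found. AT4G27210 had 0 counts in AtBD, AtBDtr and AtWTtr and 4, 0 and 0 counts in AtWT. AT5G35935 had 128 such matches, up to 97.2% identical, and the best by score was AT5G35965, at 70.9% over 3404 aligned bases, with 0 counts in AtBD, AtBDtr and AtWTtr and 0, 0 and 2 counts in AtWT. The match of AT5G35935 at 97.2% is not among those whose counts were taken. Reads shared with such copies may be missing from the counts of the pseudogenes too. Multimapping reads were 1.47% (AtBDtr replicate 3) to 15.7% (AtBDtr replicate 1) of counted and multimapping reads. CAD1 had 3 matches, none above 68.3% identity.

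The tr libraries give the 1 test of the second set that does not use the AtBD and AtWT libraries in its contrast. Its filter on low counts and its shared spread do draw on those libraries. Earlier results of these libraries were known when the members were chosen, so the test is not independent support. With edgeR's quasi-likelihood test and Benjamini-Hochberg adjustment over all genes, 3 of the 5 members passed in AtBDtr against AtWTtr, where 0.0413% of genes did (8 of 19376). CAD1 rose by 3.76 on the log2 scale (SE 0.32, adjusted p = 2.21e-05). AT2G06950 rose (adjusted p = 1.76e-05), with the bound given above. AT5G35935 fell by 5.76 on the log2 scale (SE 0.76, adjusted p = 0.00655). It missed the threshold without AtBDtr replicate 2 (adjusted p = 0.0606), and passed under the other 14 alternatives.

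AT2G25510 and ECS1 did not pass in the tr libraries. AT2G25510 had an adjusted p of 0.279 with edgeR, and its pooled CPM was 18.4 times lower in AtBDtr than in AtWTtr (95% exact counting interval 5.96 to 92.3). All 3 AtBDtr counts came from replicate 3, and without that library it was at least 11.5-fold lower over the floor (edgeR adjusted p = 0.0628). Without AtBDtr replicate 2 it was 11.8 times lower. ECS1 had an adjusted p of 0.617 with edgeR and was at least 11.6-fold lower in AtBDtr than in AtWTtr over the floor. With only the tr libraries fitted, ECS1 did not pass the filter on low counts and got no test. Of its 32 counts in AtWTtr, 22 were in replicate 3, and the bound was 5.33-fold without that library, 7.41-fold without AtBDtr replicate 2 and 7.22-fold without AtBDtr replicate 3. DESeq2 called both (adjusted p = 0.0212 for AT2G25510 and 0.0177 for ECS1), and so did edgeR with no filter on low counts (0.0322 and 0.0168). ECS1 also passed without AtWTtr replicate 2, the library with 1 count (edgeR adjusted p = 0.0342). The groups did not overlap for any of the 5 members, and did not overlap for 7.19% of all genes.

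The members differed among themselves in the first set, and the sets did not agree for all of them. For AT2G06950 the wild types of the sets differed from each other, a difference that was not tested. AT2G06950, with 0 counts in AtWT, had 221 and 309 fragments in badc-tdna13, against 317 and 335 fragments in COL0. These were 24.2 and 32.1 CPM in badc-tdna13 and 31.2 and 30.6 CPM in COL0, so the groups overlapped. Its log2 fold change was -0.15 (SE 0.18, edgeR adjusted p = 0.620). The log2 fold change was positive, at 0.061, without badc-tdna13 replicate 0.

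AT5G35935 was lower in badc-tdna13 but was counted in both of its libraries. It had 60 and 35 fragments in badc-tdna13, against 159 and 173 fragments in COL0, and it fell by 1.64 on the log2 scale (SE 0.28, edgeR adjusted p = 0.0248). Of the 2 members tested in the first set it was the 1 called, where 10.3% of loci were, and the 1 whose groups did not overlap, where those of 62.5% of loci did not. The call ended under 5 of 11 alternatives: without COL0 replicate 0 (adjusted p = 0.252), without COL0 replicate 1 (0.270), with all 6 libraries (0.815), and in limma on log2(FPKM + 1) (0.0792, log2 fold change -0.71) and log2(FPKM + 0.1) (0.0943). With edgeR 0 loci of the first set were called without COL0 replicate 0 (2486 at an unadjusted p under 0.05), without COL0 replicate 1 (2219) and with all 6 libraries (1002), so each first-set call given here was lost there. The identical libraries numbered 2 had 236 fragments each, above all the others. A fit with all 6 libraries includes them, so it holds the same fragments in both groups.

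ECS1 and AT2G25510 had low counts in the first set and did not pass the filter on them, so neither was tested. ECS1 had 0 and 0 fragments in badc-tdna13, against 7 and 5 fragments in COL0, so the groups did not overlap. Over the floor it was at least 3.59-fold lower in badc-tdna13 than in COL0, a bound of 1.82-fold without badc-tdna13 replicate 0 and 1.77-fold without badc-tdna13 replicate 1. AT2G25510 had 9 and 0 fragments in badc-tdna13, against 7 and 0 fragments in COL0, so the groups overlapped. In CPM, AT2G25510 was at 0.688 and 0 in COL0, beside 4.91 to 6.16 in AtWT and 0.899 to 1.37 in AtWTtr. These levels were not tested between the sets. At this depth no difference between the genotypes was detectable for AT2G25510.

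No locus of the first set carried AT1G72680 in its identifier column. A locus with the symbol CAD1 carried AT1G29690, a different gene with the same symbol, although the loci listed beside it carried AT1G72670 and AT1G72720. Its identity is uncertain and it is not counted as the member. It had 840 and 954 fragments in badc-tdna13, against 526 and 534 fragments in COL0, or 53.6 and 46.5 FPKM in badc-tdna13 and 28.9 and 23.5 FPKM in COL0. In CPM the locus was at 51.7 and 48.8 in COL0, beside 0.653 to 1.59 for CAD1 in AtWT, a comparison that its uncertain identity limits. Its log2 fold change was 0.91 (SE 0.14, edgeR adjusted p = 0.0196), and it missed the threshold under 5 of 11 alternatives: without COL0 replicate 0 (0.303), without COL0 replicate 1 (0.361), with all 6 libraries (0.809), and in limma on log2(FPKM + 1) (0.0665) and log2(FPKM + 0.1) (0.0685).

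**Figure D3:**
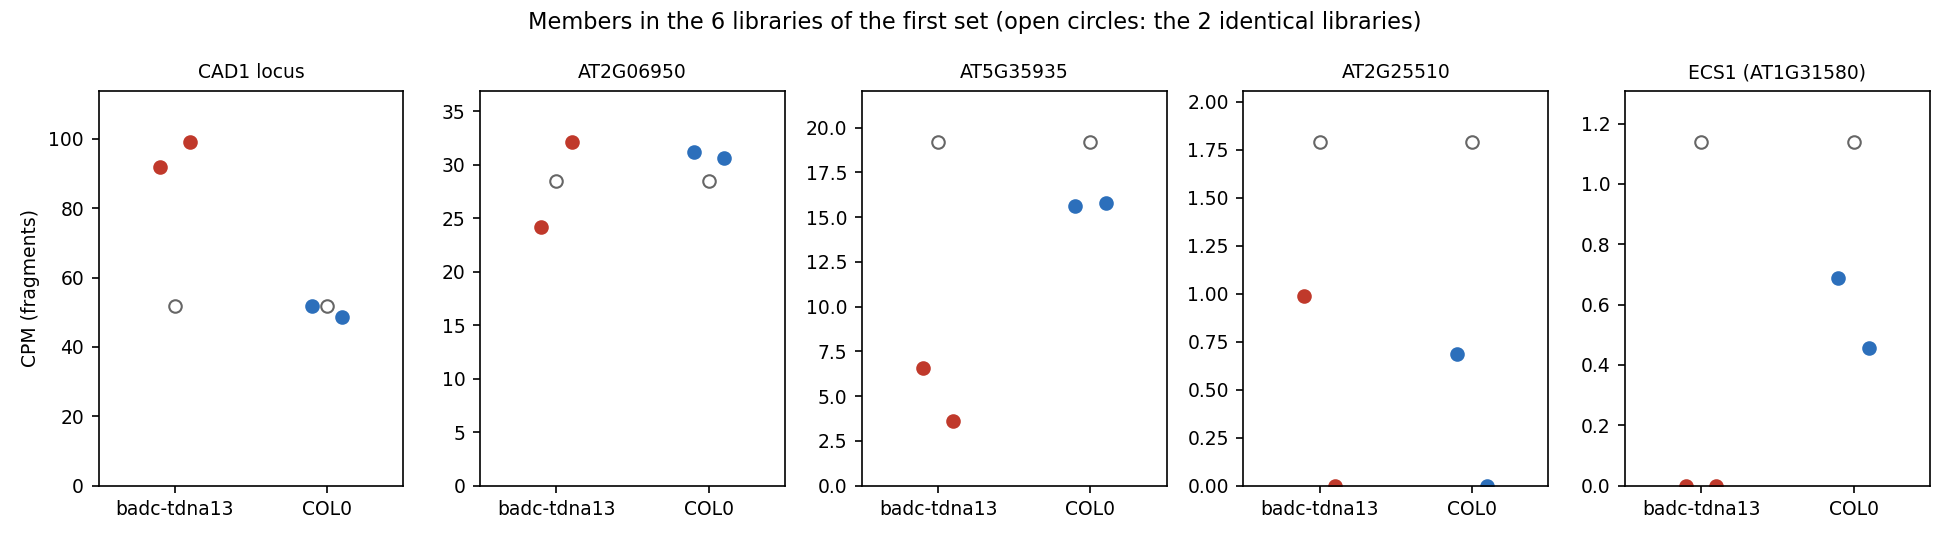
CPM of fragments for each member, and for the uncertain locus with the symbol CAD1, in badc-tdna13 and COL0. Filled circles are replicates 0 and 1, and open circles the 2 identical libraries. AT2G06950 is at 24.2 to 32.1 CPM in both groups.

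**Figure D4:**
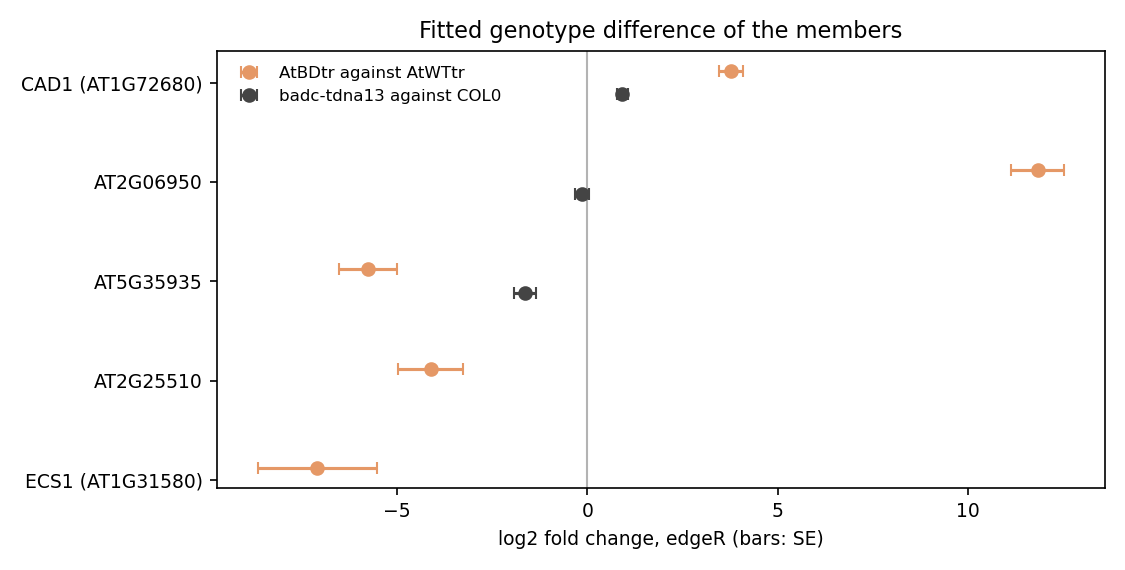
Fitted log2 fold change with SE for AtBDtr against AtWTtr and for badc-tdna13 against COL0, where the point beside CAD1 is the uncertain locus. AT2G25510 and ECS1 have no first-set point because they did not pass the filter, and the tr values of AT2G06950 and ECS1 depend on the prior count.

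The width of the gap between the genotypes is given as a description, because the AtBD and AtWT libraries that chose the members enter it and set their places in part. Counting loci whose lowest library of 1 genotype was at least 8 times the highest of the other, on CPM + 0.25, gave 3 loci over the 12 libraries, or 0.00893% of all. They were BADC3, AT2G06950 and BADC1. The gap was 7.05-fold for AT5G35935, just outside the limit, then 4.99-fold for CAD1, 2.06-fold for AT2G25510 and 0.458-fold, an overlap, for ECS1. In the first set the same count gave 8 loci, or 0.0241%, and BADC3 was the 1 locus in both counts. The others were AT2G38240, AT2G28680, RAP2-6 and ATHB-21, higher in badc-tdna13, AT2G23400 and XTH16, lower in it, and AT1G62080, listed at 0 in COL0.

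No other gene on the lists of lignin alcohol synthesis passed the test beside CAD1 in the tr libraries. Of 9 cinnamyl alcohol dehydrogenase genes 6 were tested, and CAD1 was the 1 past the edgeR threshold and higher, with 0 past it and lower. The log2 fold change was positive for 3 of the 6, with a median of -0.09, beside 0.01 for all genes. CAD5 had -0.71 (SE 0.35) and CAD4 -0.36 (SE 0.22), neither past the edgeR threshold. Per kilobase of exon, CAD1 averaged 35.4 ± 8.72 CPM in AtBDtr and 2.60 ± 0.716 CPM in AtWTtr, and CAD4 averaged 32.1 ± 7.45 CPM in AtBDtr. In AtBD, CAD1 averaged 20.8 ± 3.11 and CAD4 54.3 ± 6.29 CPM per kilobase. Of 17 other genes of the pathway, 0 passed with edgeR (2 at an unadjusted p under 0.05, and DESeq2 values were not kept for this list), with a median of -0.21. CCR2, a cinnamoyl-CoA reductase, had -1.37 (SE 0.48). In the first set, where 10.3% of all loci were called and no call held without either COL0 library, 3 of 4 CAD genes tested were called. ELI3-1 rose by 1.80 (SE 0.22), and CAD4 and CAD9 fell by 1.04 (SE 0.14) and 0.88 (SE 0.14) on the log2 scale.

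Loci without a protein-coding annotation were tested because 2 members are pseudogenes. Of 6123 such loci 337 were tested in the tr libraries, and the 2 members were the only ones past the edgeR threshold (14 at an unadjusted p under 0.05), with a median of 0.06. Those 2 were chosen for a genotype difference, so nothing about such loci is read from their calls. In the first set 450 were tested, with 25 called higher and 16 lower, where 10.3% of all loci were called. No first-set call held without either COL0 library. Of 14 genes that silence transposons or maintain DNA methylation, 0 passed with edgeR in the tr libraries (0 at an unadjusted p under 0.05, and DESeq2 values were not kept for this list), with a median of 0.02. CHR1, the chromatin remodeller DDM1, had 0.68 (SE 0.66) and the methyltransferase CMT3 had -0.84 (SE 0.82). Both were low, averaging at most 1.44 CPM in either tr group. In AtBD against AtWT, 0 of the 14 passed with edgeR and 5 had a positive log2 fold change, with a median of -0.33. There CHR1 had -0.68 (SE 0.59) and CMT3 had -0.82 (SE 0.75).

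No gene beside a member passed the same test. Of the 10 nearest tested neighbours, 1 on each side of each member, 0 passed in AtBDtr against AtWTtr with edgeR (0 at an unadjusted p under 0.05, and DESeq2 values were not kept for them), with log2 fold changes between -0.59 and 1.01. The neighbours of CAD1 lie 245 and 121 bases away. AT1G72670 had -0.59 (SE 0.74) and AT1G72690 had 0.13 (SE 0.39).

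The genes most like each member over the 12 libraries were ranked by Pearson's r of log2(CPM + 0.25), a description over libraries that share groups. The AtBD and AtWT libraries that chose the members are among the 12. A high r between members, or with the target genes, therefore follows in part from that choice, and nothing is read from it. CAD1 and AT2G06950 were each other's closest gene (r = 0.95), and AT5G54930, an AT-hook protein, followed for CAD1 (r = 0.93). AT5G35935 was most like the targets BADC3 and BADC1 (r = 0.98 for both). AT2G25510 was most like GHS1, the plastid ribosomal protein S21 (r = 0.94), then ECS1 (r = 0.93). ECS1 was most like AT1G11860, of the glycine cleavage T-protein family (r = 0.95), and AT5G42530 followed RBP31 in that order (r = 0.94 for both).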

How the data were processed

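Members, gene lists and comparisons were chosen with earlier results of these data known. The submitters' processing notes name TopHat, Cufflinks, Cuffdiff and TAIR10, without versions. Per the authors' deposited table, values of the second set are raw counts per gene, which equal the unstranded column of the per-library files in 12 libraries. Those files have the layout of STAR gene counts, and the counter is not given in the sources used here. The 2 strands took near-equal shares, so overlapping genes and antisense partners could not be separated. For the first set the deposited table holds fragments, which are expected counts (1633 of 199206 values not whole), rounded here, and FPKM, per the file headers.

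Tests were run with edgeR 4.0.16 in R 4.3.3 (filterByExpr, TMM, glmQLFit with its default, non-robust spread, adjusted p under 0.05). A fit held the 12 libraries of the second set and another 4 of the first set. Rows of the first set name a condition and a number, so they were tied to groups, not to single samples. Log2 FPKM fits used limma 3.58.1 on the deposited FPKM, and DESeq2 1.42.0 was an alternative. Copies were sought with BLAST+ 2.17.0 (matches of at least 100 bases). The scripts were tested on simulated data. Named genes were the members, BADC1 and BADC3, the 3 genes most like each member, the nearest tested neighbours, up to 10 genes of each gap count and 4 members of each list with the smallest adjusted p. Intervals and floors cover counting error only. Pooled ratios and bounds were also computed without each library, an alternative added after the data had been seen. Libraries of the same number were not paired, since their deviations correlated above 0.1 in 0 of 3 pairs in either contrast.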

Additional observations from a re-analysis of the deposited data

How the results depend on the processing

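Counts of genes past the threshold depended on the fit. AtBDtr against AtWTtr gave 8, and 31 without the low-count filter, 19 by DESeq2, 5 with only the libraries compared and 6 to 13 without 1 library (13 without AtWTtr replicate 2). AtBD against AtWT gave 11, and 66 with DESeq2, 43 with no filter, 287 with only the libraries compared and 5 to 7 without 1 library. badc-tdna13 against COL0 gave 1912, and 1025 with no filter, 609 with log2(FPKM + 1), 581 with log2(FPKM + 0.1), and 0 to 7457 without 1 library (0 without either COL0 library, 7457 without badc-tdna13 replicate 0 and 4930 without badc-tdna13 replicate 1). With all 6 libraries, where both groups hold the same fragments in the library numbered 2, edgeR gave 0 (1002 at an unadjusted p under 0.05, and no other tool was run on them). A robust spread estimate in edgeR, added after the data had been seen, gave 10, 12 and 2107 and changed no member's call. The replicate block gave 6 for AtBDtr against AtWTtr and 10 for AtBD against AtWT and changed no member's call in the tr contrast. The count of gaps in the second set was 3, and 5 at 4-fold and 3 to 4 without 1 library. In the first set it was 8, and 74 at 4-fold, 2 at 16-fold and 13 to 214 without 1 library (214 without badc-tdna13 replicate 1). Without 1 library of the first set, the log2 fold change of AT2G06950 ran from -0.40 to 0.061, reversed to 0.061 without badc-tdna13 replicate 0. The causes were not tested. Low counts limit ECS1 and AT2G25510 in the tr libraries and the first set.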
